A study of Drosophila melanogaster with 24 samples.

Results

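The gene jumu encodes the Fox transcription factor Jumeau. The genes described here were selected for group mean RNA levels opposite to its dose in mesodermal cells of Drosophila melanogaster embryos. They numbered 84 of the 17476 genes in the count table, and 8841 genes had a jumu loss-of-function mean of at least 1 CPM, which is the count scaled to a common library size, here with TMM factors that correct for composition. A gene was included where its jumu loss-of-function mean was at least 1 CPM, where the jumu loss-of-function and double loss-of-function means were both at least 1.3 times the wild-type mean, and where the jumu overexpression mean was at most 0.77 times the wild-type mean. A gene at 0 counts in both wild-type and jumu overexpression, such as CR44858, met the last limit too. The genes were thus chosen by the measured levels of these 4 genotypes, which are given as a description with no test.

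The study sorted GFP-positive cells from embryos aged at 25 °C to stage 11 or early stage 12, and total RNA was sequenced from 4 samples of each of 6 genotypes. jumu loss-of-function embryos carried twi-GAL4 Df(3R)Exel6157 over a UAS-2EGFP Df(3R)Exel6157 chromosome, and double loss-of-function embryos carried Df(1)CHES-1-like1 in addition. jumu overexpression embryos were twi-GAL4 UAS-2EGFP/UAS-jumu, CHES-1-like overexpression embryos held twi-GAL4 UAS-2EGFP over UAS-CHES-1-like, CHES-1-like loss-of-function embryos combined Df(1)CHES-1-like1 with twi-GAL4 UAS-2EGFP/+, and wild-type embryos were twi-GAL4 UAS-2EGFP/+. All 6 genotypes thus carried the twi-GAL4 driver, which acts in cells that express the mesodermal gene twist, and the GFP transgene it drives. A deficiency can remove neighbouring genes as well, the mutant, overexpressing and wild-type embryos came from crosses of different strains, and the labels describe the overexpression embryos as late stage 11, so that genotype, strain and a small difference in age cannot be told apart. The study's methods call the 4 samples biological replicates for wild-type and for jumu loss-of-function. For the other 4 genotypes the sources used here do not state how the samples relate, so that their p-values measure only the spread between samples, which may be technical.

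Forkhead box (Fox) proteins bind DNA through a winged-helix domain and can activate or repress the genes they bind. In the fly mesoderm, jumu and CHES-1-like, a second Fox gene, are known for roles in the specification of heart progenitors and in the divisions of these cells. Among the genes below are chaperones, which refold damaged proteins, hormones and receptors, which carry signals between cells, and enzymes that detoxify small molecules.

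The targeted genes followed the labels. jumu stood at 27.1, 30.1, 31.4 and 30.9 CPM in jumu loss-of-function libraries, 19.2 to 23.6 CPM in double loss-of-function and 648 to 715 CPM in jumu overexpression, against 118 to 126 CPM in wild-type libraries. The jumu loss-of-function mean was 24.4% of the wild-type mean; the labels call the deficiency null for jumu, and why counts remained was not tested. CHES-1-like was at 0.558 to 2.78 CPM in double loss-of-function, 1375 to 1748 CPM in CHES-1-like overexpression, with 0.683 to 1.72 CPM in CHES-1-like loss-of-function, against 154 to 161 CPM in wild-type. Its highest value in the double loss-of-function group, 2.78 CPM, belonged to replicate 2. Library totals ran from 15197000 to 72519900 counts, at which 3 counts correspond to between 0.0371 and 0.292 CPM. Summed levels of 12 mesodermal markers overlapped between all 6 genotypes, from 1210 to 1845 CPM per library, and none of these markers was at 0 throughout a genotype. Sums for other cell types did not all overlap. Fat body markers summed to 747 to 805 CPM in jumu loss-of-function and 676 to 847 CPM in jumu overexpression, against 522 to 540 CPM in wild-type. Somatic muscle markers summed to 2894 to 3063 and 2769 to 2851 CPM, against 3389 to 3491 CPM. The part of cell content in the levels below was not tested.

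Double loss-of-function replicate 2 stood apart from the other 3 libraries of its genotype. Of 69 selected genes with a double loss-of-function mean of at least 1 CPM, 16 lay outside the range of the other 3 libraries by more than 1.5 times in replicate 2, while 0 did so in each of replicates 1, 3 and 4. Without this library the rule gave 88 genes, of which 80 were among the 84, and CG10623, Kaz-m1, HIP and mt:ATPase6 dropped out.

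How measurable the fall with overexpression was depended on the wild-type level. For 40 of the 84 genes (47.6%) the wild-type mean was at least 1 CPM, and only for these can a full downward series over jumu dose be read with some depth. Another 30 genes had a lower wild-type mean with some wild-type library above 3 counts. In the remaining 14 genes (16.7%) every wild-type library held 3 counts or fewer, so a further decrease with overexpression was not detectable at this depth. These genes entered through their level in jumu loss-of-function. With wild-type near 0, a double loss-of-function level near 0 could pass too, as for CG43997 at 0 to 1 counts per library. By edgeR's quasi-likelihood test, a gene was called where its Benjamini-Hochberg FDR was under 0.1 and its log2 fold change beyond 0.5. Of the 84 genes, 74 were called higher and 0 lower in jumu loss-of-function against wild-type (9.82% and 9.54% of all tested genes), 74 of 80 tested were called higher in double loss-of-function (11.9% of all), and 24 of 64 tested were called lower and 0 higher in jumu overexpression (7.68% and 7.99% of all). Of those 24 genes, 22 were among the 40 with a wild-type mean of at least 1 CPM. These contrasts chose the genes, and nothing further is read from the counts.

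Most genes that met the loss-of-function limits did not meet the overexpression limit. Of 814 genes that met the loss-of-function limits, 84 (10.3%) had an overexpression mean at or below 0.77 times wild-type, 367 (45.1%) lay between the limits and 363 (44.6%) had an overexpression mean at least 1.3 times wild-type. Over the 40 better measured genes, the ratio to the wild-type mean ranged in jumu loss-of-function from 1.3 to 12.8 with a median of 1.73, in double loss-of-function from 1.32 to 6.97 with a median of 1.91, and in jumu overexpression from 0.123 to 0.77 with a median of 0.67.

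**Figure D1:**
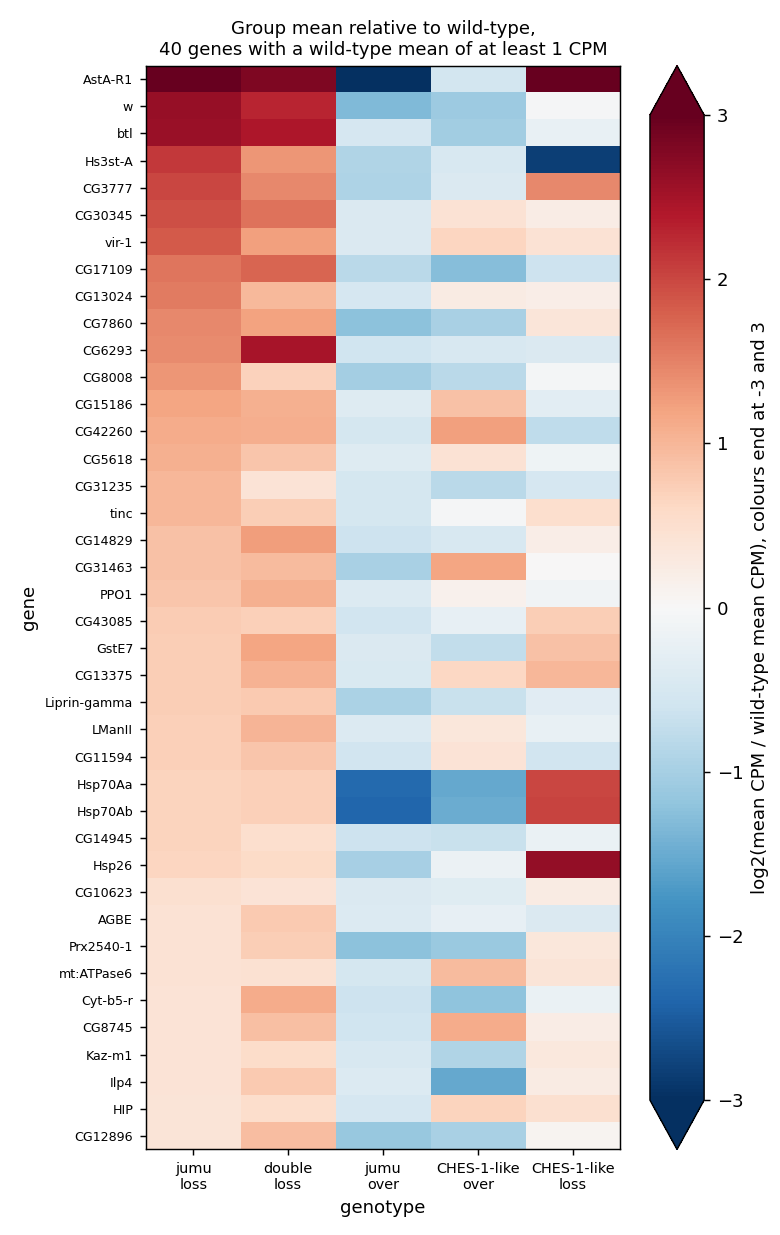
The colour gives the log2 ratio of the group mean (CPM) to the wild-type mean for each of the 40 genes with a wild-type mean of at least 1 CPM (down the page, sorted by jumu loss-of-function) in 5 genotypes (across). The left 3 columns were used to choose the genes, and the 2 CHES-1-like columns, which were not, hold both signs, with AstA-R1, Hsp26 and the Hsp70 genes high and Hs3st-A low in CHES-1-like loss-of-function.

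The levels of the 8 CHES-1-like libraries did not enter the limits that chose the genes. The TMM factors were nevertheless set over all 24 libraries, and the double loss-of-function embryos, whose means had to lie above wild-type, also carried Df(1)CHES-1-like1, so that the comparison is not fully separate from the choice. Set against each other, CHES-1-like overexpression and CHES-1-like loss-of-function allowed 66 of the 84 genes to be tested. Of these 41 were called (40.7% of all tested genes were), and 29 were lower (43.9%, against 19.7% of all tested genes) and 12 were higher (18.2%, against 21% of all tested genes) in CHES-1-like overexpression. The median log2 fold change was -0.52 over the tested genes of the set and 0.03 over all tested genes. The other 18 genes fell under the filter on low average level, and 13 of them had wild-type libraries with 3 counts or fewer throughout. jumu itself did not pass the test in this comparison (log2 fold change 0.12 ± 0.08 SE, FDR = 0.253). The split rests on the TMM scaling: with plain library totals the median of all tested genes moved to 0.55, and 21 of the set (45.7% of all tested genes) were called higher and 19 (7.14% of all) lower. The median of the set was then 0.01, and it lay below that of all genes under either scaling.

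**Figure D2:**
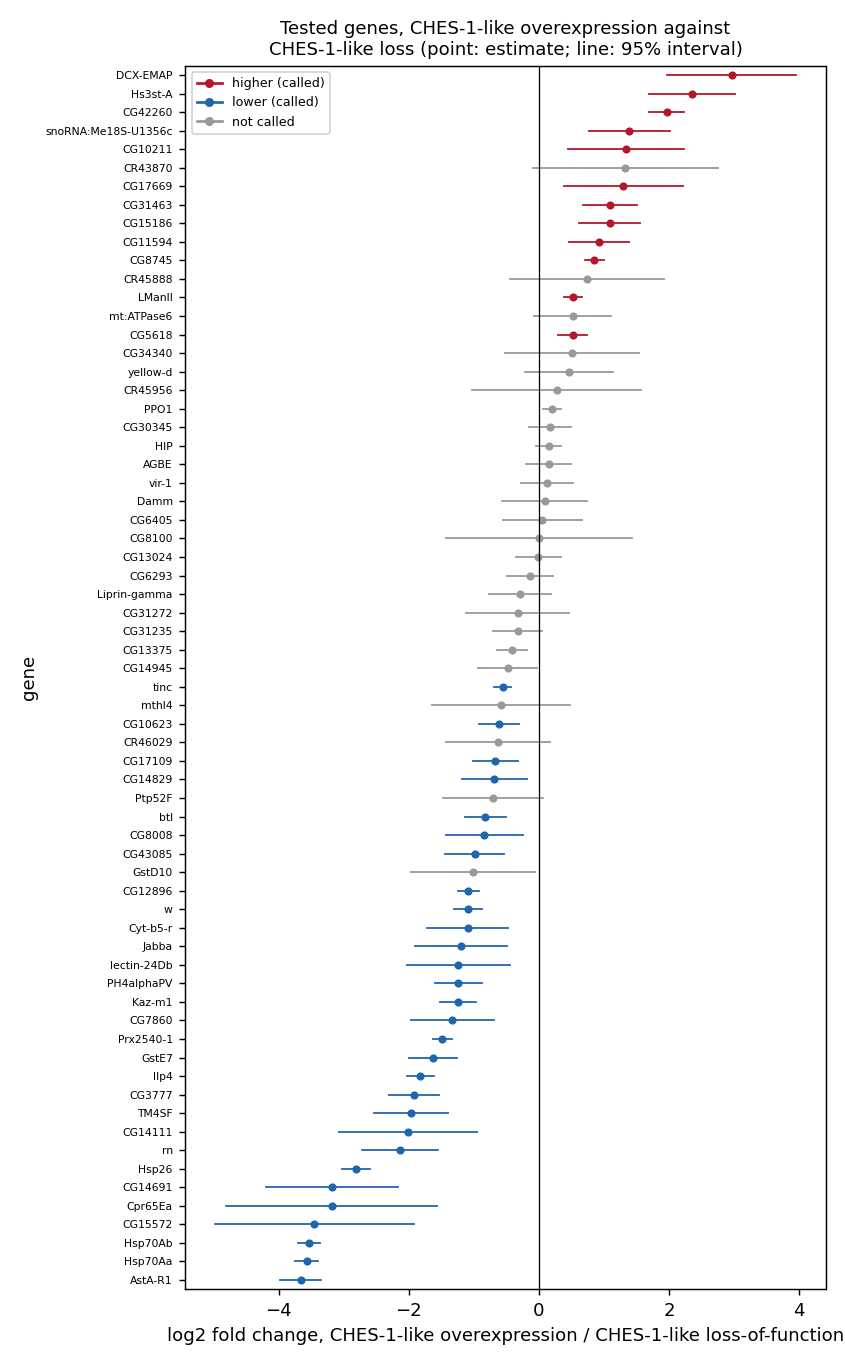
Each row is 1 of the 66 tested genes, with the edgeR log2 fold change of CHES-1-like overexpression over CHES-1-like loss-of-function (point) and its 95% interval (line). The 29 genes called lower reach from tinc to AstA-R1 at -3.66, and the 12 called higher reach up to DCX-EMAP at 2.97.

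Against wild-type, which also served to choose the genes, CHES-1-like loss-of-function had 15 of 66 tested genes higher (6.24% of all tested genes were) and 6 lower (9.18% of all). CHES-1-like overexpression had 11 of 64 tested genes higher (16.7% of all) and 23 lower (16.5% of all). The median log2 fold change of the set was -0.29 in CHES-1-like overexpression (0.01 over all tested genes), beside 0.24 in CHES-1-like loss-of-function (-0.01 over all). These comparisons share their wild-type libraries with each other and with the rule. With library totals the loss-of-function split turned to 11 higher (2.17% of all tested genes) and 25 lower (51.2% of all), and the median of the set was -0.30 beside -0.56 over all tested genes. That of overexpression was then 9 higher (14% of all) and 22 lower (17.7% of all). Of the 63 genes tested in both comparisons with wild-type, 5 were called lower in CHES-1-like overexpression and higher in CHES-1-like loss-of-function (7.94%, against 1.67% of all genes tested in both), namely Hsp70Aa, Hsp70Ab, AstA-R1, GstE7 and TM4SF. The opposite pair of calls was made for CG42260 alone (1.59%, against 1.12% of all), and 22 were called in neither genotype (34.9%, against 58.4% of all).

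The 3 heat-shock genes of the set, Hsp70Aa, Hsp70Ab and Hsp26, were chosen for lying above wild-type where jumu was removed and below it where jumu was in excess. Hsp70Aa, which encodes an inducible chaperone, was measured at 214, 203, 203 and 199 CPM in jumu loss-of-function, at 212, 226, 197 and 199 CPM in double loss-of-function and at 28.1, 23.9, 25.5 and 24.4 CPM in jumu overexpression, against 122, 130, 132 and 128 CPM in wild-type. The loss-of-function groups overlapped each other and neither overlapped wild-type or jumu overexpression, which held 19.9% of the wild-type mean. Its neighbour Hsp70Ab, a near-identical copy of it 1991 bp away, gave nearly the same values, with a jumu overexpression mean of 25.4 ± 0.63 CPM against 132 ± 4.2 CPM in wild-type (SD, n = 4 each). Since reads of such copies can be split or dropped by the counting, the level of each Hsp70 gene alone is uncertain. Over the heat-shock protein family, jumu loss-of-function against wild-type had 6 of 21 tested genes called higher and 4 lower (9.82% and 9.54% of all tested genes). In jumu overexpression 1 of 20 was higher and 10 were lower (7.99% and 7.68% of all). Under library totals these were 1 and 9 (6.35% and 4.87% of all). Hsp70Aa, Hsp70Ab and Hsp26 are part of these family counts and were chosen by the same contrasts, so nothing further is read from the counts.

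The Hsp70 genes also differed widely between the CHES-1-like genotypes. Hsp70Aa stood at 49.2, 40.5, 43.5 and 43.6 CPM in CHES-1-like overexpression, against 542, 493, 510 and 507 CPM in CHES-1-like loss-of-function, a log2 fold change of -3.57 ± 0.09 (SE, edgeR, FDR = 1.2e-13). Its CHES-1-like loss-of-function level therefore exceeded that of jumu loss-of-function. Hsp26, a small heat-shock protein, was at 12.2 to 13.4 CPM in jumu loss-of-function and 3.82 to 4.45 CPM in jumu overexpression, against 7.16 to 9.27 CPM in wild-type. It reached 48.3, 57.0, 48.2 and 50.3 CPM in CHES-1-like loss-of-function, above every library of the other genotypes, while its CHES-1-like overexpression values of 5.49 to 8.09 CPM overlapped wild-type. The difference between the CHES-1-like genotypes was -2.81 ± 0.11 on the log2 scale (FDR = 3.0e-11). A list of 31 stress, heat-shock and oxidative defence genes holds Hsp26, Hsp70Aa and Prx2540-1 of the set. Between the CHES-1-like genotypes, 5 of its 29 tested genes were higher and 15 lower in overexpression (21% and 19.7% of all tested genes). Under library totals 9 were higher and 10 lower (45.7% and 7.14% of all). HIP, a cochaperone by name, was 13.2 to 14.5 CPM in jumu overexpression, against 17.7 to 21.9 CPM in wild-type, and its double loss-of-function level rested on replicate 2 at 43.8 CPM beside 21.4 to 25.7 CPM in the other 3.

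AstA-R1, a receptor for the neuropeptide allatostatin A, had the widest range of the better measured genes. It was read at 18.8, 17.8, 17.1 and 20.4 CPM in jumu loss-of-function and at 0.264, 0.0735, 0.0931 and 0.284 CPM in jumu overexpression, against 1.83, 1.13, 1.11 and 1.72 CPM in wild-type. The jumu loss-of-function mean was 12.8 times the wild-type mean and the overexpression mean 12.3% of it. CHES-1-like overexpression gave 1.24, 1.06, 0.768 and 0.854 CPM, against 11.9, 12.3, 9.59 and 12.3 CPM in CHES-1-like loss-of-function (log2 fold change -3.66 ± 0.16 SE, FDR = 1.0e-10). The double loss-of-function libraries, at 8.69 to 10.6 CPM, lay below the jumu loss-of-function libraries and overlapped those of CHES-1-like loss-of-function.

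Another signalling gene was likewise lower in CHES-1-like overexpression than in CHES-1-like loss-of-function. Ilp4, an insulin-like peptide of the embryonic mesoderm, was at 72.7 to 95.6 CPM in jumu loss-of-function and 42.1 to 48.7 CPM in jumu overexpression, against 58.9 to 61.9 CPM in wild-type. Its double loss-of-function values were 88.9, 168, 78.1 and 79.0 CPM, the second of them from the library that stood apart. In CHES-1-like overexpression Ilp4 fell to 24.7, 20.9, 18 and 19.9 CPM, against 84.6, 64.5, 70.6 and 67.4 CPM in CHES-1-like loss-of-function (log2 fold change -1.82 ± 0.11 SE, FDR = 1.6e-09). All 4 CHES-1-like overexpression values lay below the lowest jumu overexpression value, a comparison that was not tested.

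btl encodes Breathless, a fibroblast growth factor receptor best known from the migrating tracheal cells. It was measured at 56.4, 65.1, 65.9 and 66.0 CPM in jumu loss-of-function, at 58.1, 48.5, 61.6 and 57.1 CPM in double loss-of-function and at 6.73, 8.49, 6.15 and 8.28 CPM in jumu overexpression, against 9.98, 10.6, 10.2 and 11.0 CPM in wild-type. The loss-of-function groups overlapped each other, and wild-type lay below them and above jumu overexpression without overlap. The jumu overexpression mean was 70.8% of the wild-type mean. CHES-1-like overexpression gave 4.04 to 6.31 CPM, against 7.04 to 11.2 CPM in CHES-1-like loss-of-function (log2 fold change -0.82 ± 0.16 SE, FDR = 0.00057), a call that was lost with library totals (-0.30, FDR = 0.295). The other 7 of 8 tracheal markers summed to means of 111 CPM in both jumu loss-of-function and double loss-of-function. This sum was 99.6 CPM in jumu overexpression, against 106 CPM in wild-type. It was 93.4 CPM in CHES-1-like overexpression and 103 CPM in CHES-1-like loss-of-function. Since btl was chosen by its levels in the jumu genotypes, its wider span there followed from the choice. The part of tracheal cell content in the btl levels was not tested.

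rn encodes Rotund, a zinc-finger transcription factor of leg and wing patterning. It was at 30.8, 27.4, 29.5 and 30.2 CPM in jumu loss-of-function and 34.8, 47.1, 32.5 and 33.3 CPM in double loss-of-function, while jumu overexpression at 0.248 to 0.308 CPM overlapped wild-type at 0.164 to 0.760 CPM. In the CHES-1-like comparison rn was lower in overexpression, at 0.266 to 0.401 CPM, against 0.974 to 1.61 CPM in loss-of-function (log2 fold change -2.14 ± 0.30 SE, FDR = 2.4e-05). CG34340, named Drgx in the current annotation and encoding a homeobox protein, stood at 54.7, 64.6, 64.9 and 67.5 CPM in jumu loss-of-function and 29.9, 12.5, 26.8 and 30.9 CPM in double loss-of-function, with no other library above 0.584 CPM. mthl4, a methuselah-like receptor, was at 11.8 to 13.8 CPM in jumu loss-of-function and 5.21 to 5.85 CPM in double loss-of-function, against 0.308 to 0.526 CPM in wild-type. Or47b, an odorant receptor gene, was at 2.11 to 2.80 CPM in jumu loss-of-function, and its wild-type libraries held 3 counts or fewer.

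**Figure D3:**
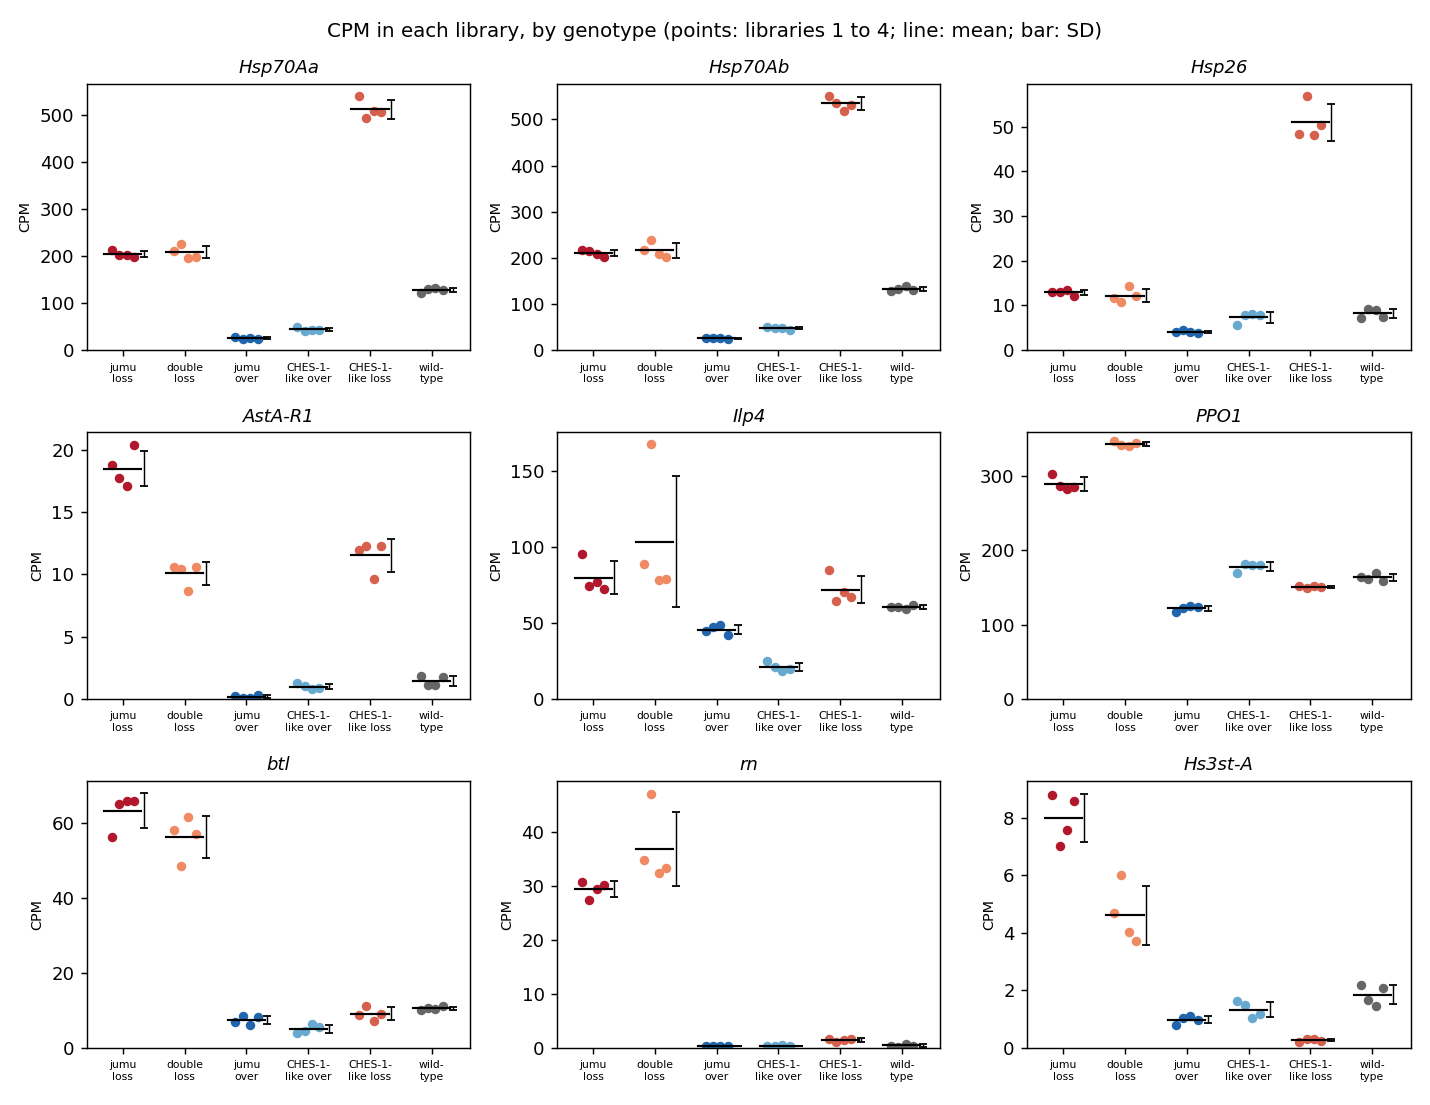
CPM (linear axes from 0) of 9 genes in every library by genotype, with points for libraries, a line for the mean and a bar for the SD (n = 4). Hsp70Aa, Hsp70Ab and Hsp26 peak in CHES-1-like loss-of-function, btl is at 48.5 CPM or more in each library of both jumu deficiency genotypes and at 11.2 CPM or less in the others, and Ilp4 shows 1 double loss-of-function library at 168 CPM.

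PPO1, a prophenoloxidase made by the crystal cells of the blood for melanisation, was one of the abundant genes of the set. It had 303, 286, 283 and 286 CPM in jumu loss-of-function, 348, 342, 340 and 345 CPM in double loss-of-function and 117, 123, 125 and 124 CPM in jumu overexpression, against 164, 162, 170 and 159 CPM in wild-type. The 4 groups did not overlap. Between the CHES-1-like genotypes PPO1 was not called, with 169 to 182 CPM in overexpression, against 149 to 152 CPM in loss-of-function (log2 fold change 0.21 ± 0.07 SE). The other 13 of 14 hemocyte markers summed to means of 1534 CPM in jumu loss-of-function, 1270 CPM in double loss-of-function and 1149 CPM in jumu overexpression, against 1407 CPM in wild-type, and to 853 CPM in CHES-1-like overexpression, against 1653 CPM in CHES-1-like loss-of-function. None of the 14 markers was at 0 throughout any genotype. The part of hemocyte content in the PPO1 levels was not tested, and in bulk samples fewer cells of a type and less RNA per cell cannot be told apart. Of 13 tested hemocyte markers 9 were lower and 0 higher in CHES-1-like overexpression than in CHES-1-like loss-of-function by the edgeR test (19.7% and 21% of all tested genes). With library totals 6 were lower and 1 higher (7.14% and 45.7% of all). PPO1 was not among those called lower.

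Other genes linked to immunity were low. vir-1, a virus-induced gene, was at 3.57 to 4.06 CPM in jumu loss-of-function and 0.466 to 1.03 CPM in jumu overexpression, which overlapped the 0.701 to 1.43 CPM of wild-type. LysE, a lysozyme, was at 2.10 to 3.19 CPM in jumu loss-of-function and at 4.65, 0.613, 4.83 and 3.93 CPM in double loss-of-function, where the lowest value was again that of replicate 2, and every wild-type library held 3 counts or fewer. lectin-24Db, a C-type lectin, was lower in CHES-1-like overexpression, at 0.166 to 0.398 CPM, against 0.521 to 1.17 CPM in CHES-1-like loss-of-function (log2 fold change -1.24 ± 0.40 SE, FDR = 0.024), a call lost with library totals (-0.72, FDR = 0.225).

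Among redox and detoxification genes, the peroxiredoxin Prx2540-1 was at 61.1, 53, 52 and 54.3 CPM in jumu loss-of-function and 18, 16.9, 18.2 and 17.1 CPM in jumu overexpression, against 41.3, 41.5, 41.7 and 39.7 CPM in wild-type. In CHES-1-like overexpression it stood at 17.8 to 19.8 CPM, against 49.1 to 55.9 CPM in CHES-1-like loss-of-function (log2 fold change -1.48 ± 0.08 SE, FDR = 4.6e-10), so that the ranges of both overexpression genotypes overlapped. CG12896, a close copy 3479 bp away whose counts may be shared with Prx2540-1, gave a log2 fold change of -1.08 ± 0.08. GstE7, a glutathione transferase, was at 3.67 to 4.84 CPM in jumu loss-of-function and 1.32 to 2.05 CPM in jumu overexpression, against 2.03 to 2.92 CPM in wild-type, with a slight overlap. It fell to 1.24 to 1.60 CPM in CHES-1-like overexpression, against 3.67 to 5.08 CPM in CHES-1-like loss-of-function (log2 fold change -1.63 ± 0.19 SE, FDR = 3.1e-06).

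Under extra jumu, most calls in the glutathione transferase family were in the direction opposite to GstE7. With library totals 6 were higher and 0 lower (6.35% and 4.87% of all tested genes). Of its 35 genes, GstE7 and GstD10 belonged to the set and were chosen by their levels in the jumu genotypes. In jumu overexpression 9 of 30 tested family genes were higher than in wild-type and 1 was lower (7.99% and 7.68% of all tested genes), beside 12 higher and 2 lower of 28 tested in jumu loss-of-function (9.82% and 9.54% of all). In CHES-1-like overexpression 18 of 30 were lower (19.7% of all) and 0 higher (21% of all) than in CHES-1-like loss-of-function. With library totals 10 were lower and 2 higher (7.14% and 45.7% of all). Of 86 cytochrome P450 genes the set held Cyp311a1 alone, beside 84 of all 17476 genes.

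Enzymes of carbohydrate and lipid metabolism were also in the set. LManII, a lysosomal alpha-mannosidase, was at 102 to 104 CPM in jumu loss-of-function and 116 to 132 CPM in double loss-of-function, with 46.4 to 48.1 CPM in jumu overexpression, against 60.1 to 65.6 CPM in wild-type. It went the other way with CHES-1-like, at 75.3 to 82.6 CPM in overexpression, against 52.0 to 54.7 CPM in loss-of-function (log2 fold change 0.53 ± 0.07 SE, FDR = 1.3e-05). CG8745, of no stated role here, was likewise higher, with 57.6 to 66.0 CPM in CHES-1-like overexpression, against 32.5 to 35.5 CPM in CHES-1-like loss-of-function (log2 fold change 0.85 ± 0.07 SE). AGBE, the glycogen branching enzyme, had 2.20 to 3.75 CPM in jumu overexpression, overlapping the 3.67 to 4.62 CPM of wild-type. Jabba, a lipid droplet protein that anchors histones, was at 3.66 to 4.16 CPM in jumu loss-of-function, against 0.451 to 0.701 CPM in wild-type, and was lower in CHES-1-like overexpression, at 0.162 to 0.434 CPM, than in CHES-1-like loss-of-function, at 0.674 to 0.876 CPM (FDR = 0.015, and 0.23 with library totals). Amyrel, an amylase-related gene, was at 9.47 to 10.2 CPM in jumu loss-of-function, and its mean there was at least 123-fold higher than the level that 3 counts in each wild-type library would give.

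Genes of the cell surface and matrix differed in direction. Hs3st-A, a heparan sulfate sulfotransferase, was at 8.79, 7, 7.56 and 8.60 CPM in jumu loss-of-function and 0.791, 1.03, 1.12 and 0.976 CPM in jumu overexpression, against 2.17, 1.66, 1.46 and 2.08 CPM in wild-type. Unlike in the jumu genotypes, Hs3st-A was lower where CHES-1-like was removed. It was at 1.02 to 1.62 CPM in CHES-1-like overexpression, against 0.213 to 0.3 CPM in CHES-1-like loss-of-function (log2 fold change 2.36 ± 0.34 SE, FDR = 2.9e-05). In double loss-of-function it remained above wild-type at 3.70 to 6.00 CPM. PH4alphaPV, a prolyl 4-hydroxylase subunit that modifies collagens, was higher than wild-type in both CHES-1-like genotypes, at 1.5 to 1.8 CPM in overexpression and 3.31 to 4.56 CPM in loss-of-function, against 0.292 to 0.822 CPM in wild-type. TM4SF, a tetraspanin, was at 0.299 to 0.668 CPM in CHES-1-like overexpression, against 1.61 to 2.34 CPM in CHES-1-like loss-of-function (FDR = 4.2e-05). The neighbouring genes Cpr65Ea and Cpr65Eb, 2179 bp apart, were the 2 of 133 cuticle protein genes in the set, beside 84 of all 17476 genes. Cpr65Ea reached 1.47 to 2.95 CPM in jumu loss-of-function, against 0.0205 to 0.0807 CPM in wild-type.

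Among the other genes called higher in CHES-1-like overexpression than in CHES-1-like loss-of-function was CG42260, at 11.1, 10.3, 9.75 and 10.3 CPM in CHES-1-like overexpression, against 2.46, 2.14, 3.37 and 2.49 CPM in CHES-1-like loss-of-function (log2 fold change 1.97 ± 0.14 SE, FDR = 1.3e-08). Its wild-type values of 4.12 to 4.85 CPM lay between those groups without overlap, so that CG42260 followed the dose of CHES-1-like upward and that of jumu downward. It overlaps an antisense RNA, asRNA:CR30267, and 3 more genes. DCX-EMAP, a microtubule-associated protein, had the largest fold (log2 fold change 2.97 ± 0.51 SE) at low levels of 0.377 to 0.964 CPM in CHES-1-like overexpression, against at most 0.129 CPM in CHES-1-like loss-of-function. The small nucleolar RNA snoRNA:Me18S-U1356c, CG10211, CG17669 (Dnaaf3, an axonemal dynein assembly factor), CG31463, CG15186, CG11594 and CG5618 make up the rest, with log2 fold changes from 0.52 to 1.39. The call of CG10211 ended without CHES-1-like overexpression replicate 4 (FDR = 0.122) or CHES-1-like loss-of-function replicate 1 (FDR = 0.118), and that of CG17669 without CHES-1-like loss-of-function replicate 4 (FDR = 0.157). The call of CG5618 ended at the fold limit, with a log2 fold change of 0.46 without CHES-1-like overexpression replicate 2 and of 0.50 without CHES-1-like loss-of-function replicate 2.

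The counts of w and mt:ATPase6 carry more doubt. w, the white gene of eye pigment transport, was at 386 to 399 CPM in jumu loss-of-function, 199 to 358 CPM in double loss-of-function (lowest in replicate 2) and 23.3 to 27.0 CPM in jumu overexpression, against 60.1 to 67.3 CPM in wild-type. CHES-1-like overexpression gave 23.0 to 33.3 CPM, against 56.0 to 70.5 CPM in CHES-1-like loss-of-function. A white minigene marks many fly transgenes, and counts per gene cannot tell it from the native gene, and the part of transgene copies in these values was not tested. mt:ATPase6, a subunit of the mitochondrial ATP synthase, was at 729 to 1734 CPM in jumu loss-of-function and 357 to 1071 CPM in jumu overexpression, against 580 to 1078 CPM in wild-type. These groups overlapped throughout, the gene shares exon bases with mt:ATPase8 and mt:CoIII, and it met the rule through means with a wide spread.

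tinc encodes the transmembrane protein Tincar of the embryonic heart and nervous system. It was at 77.6, 75.8, 73.2 and 74.8 CPM in jumu loss-of-function, 60.2 to 69.2 CPM in double loss-of-function and 24.5 to 29.7 CPM in jumu overexpression, against 33.1 to 40.1 CPM in wild-type, with no overlap between these groups. CHES-1-like overexpression gave 36.0 to 38.2 CPM, against 52.3 to 55.9 CPM in CHES-1-like loss-of-function (log2 fold change -0.56 ± 0.07 SE, FDR = 6.9e-06), a call lost with library totals (-0.03, FDR = 0.973). None of 15 genes of heart progenitor specification, of 14 cardiac markers or of 30 genes of Polo and cell division belonged to the set. As the set holds 84 of all 17476 genes, lists this short would hold few or none by size alone, and nothing is read from it. Of the 30 division genes, 22 were called lower in jumu loss-of-function (9.54% of all tested genes), so those 22 could not meet the rule.

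Genes with hardly any wild-type RNA gave the largest ratios. CG31784 was at 39.6, 35.8, 36.3 and 39.1 CPM in jumu loss-of-function and 38.9, 47.2, 34.8 and 35.3 CPM in double loss-of-function, with no library of another genotype above 0.132 CPM. Of the 14 genes whose wild-type libraries held 3 counts or fewer, Amyrel, CG32564, CG4691, CG4229, LysE and Or47b had jumu loss-of-function means from 2.42 to 9.83 CPM. CG4691 lies beside CR44858 and CG4701 on arm 2L, and these 3 neighbours were all at 1.64 CPM or above in each jumu loss-of-function library and at or under 0.0205 CPM in every library with jumu intact.

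The double loss-of-function mean was below the jumu loss-of-function mean in 56 of the 84 genes, with a median ratio of 0.853. Among the 44 genes with a wild-type mean under 1 CPM, 37 were lower and 18 were at or below 0.5 of the jumu loss-of-function mean, while of the 40 better measured genes 19 were lower and 0 reached 0.5. The genes of low wild-type level passed the 1 CPM minimum through their jumu loss-of-function mean, and no such minimum was set for double loss-of-function, so that the choice itself favoured a lower double loss-of-function mean in them and nothing is read from these counts. On the X, CG43997, CG32564 and Cyp311a1 all but vanished in double loss-of-function. CG32564 was at 0.0684, 0, 0.0299 and 0.0649 CPM in double loss-of-function, against 5.40, 5.92, 6.03 and 7.11 CPM in jumu loss-of-function. CG15115 on 2R was at 0.0519 to 0.123 CPM in double loss-of-function, against 1.78 to 2.07 CPM in jumu loss-of-function. In all 4 of these genes the wild-type libraries held 3 counts or fewer. Removal of CHES-1-like and the strains crossed cannot be told apart in this contrast, which was not tested.

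**Figure D4:**
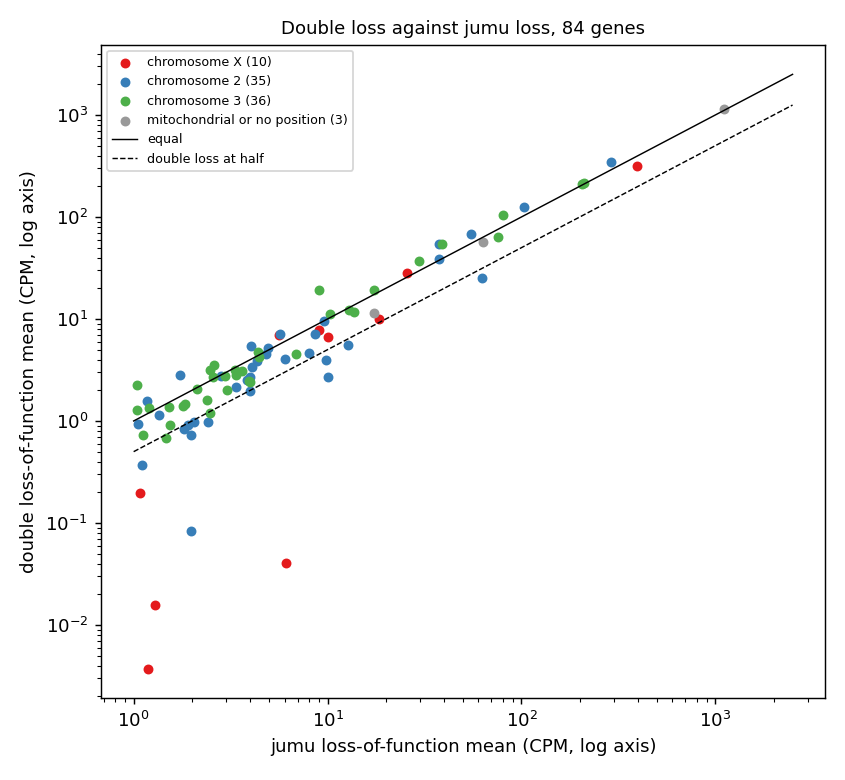
Mean CPM in double loss-of-function (vertical, log axis) against jumu loss-of-function (horizontal, log axis) for the 84 genes, coloured by chromosome, with a solid line at equality and a dashed line at 0.5 of the jumu loss-of-function mean. Genes above 100 CPM lie near the solid line, and 3 X-linked genes and CG15115 on 2R lie far below both lines.

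Positions in Release 6 of the genome were found for 82 of the genes, of which 75 were protein-coding. Their median exon length was 1840.5 bp, against 2076.5 bp for all genes with a jumu loss-of-function mean of at least 1 CPM. A second gene overlapped 37 of the 82, against 52.8% of those genes that had a position, and in 19 the overlap reached exons. 21 genes started within 20 kb of another gene of the set, among them Hsp70Aa and Hsp70Ab, Prx2540-1 and CG12896, vir-1 and CG6405, CG30345 and CG8008, Or47b and CG43114, and CG3777 and CG13375, which overlap. None lay within 1 Mb of CHES-1-like.

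3 genes lay within 1 Mb of jumu. CG6293 (3R, 10307806 to 10311613, minus strand) starts 38569 bp from jumu and overlaps exons of Nuak. All its double loss-of-function values lay above those of jumu loss-of-function, at 18.9, 20.6, 18.3 and 18.3 CPM, beside 9.38, 10.1, 8.24 and 8.49 CPM in jumu loss-of-function and at most 2.39 CPM in jumu overexpression, against 3.16 to 3.81 CPM in wild-type. CG14691 and CG31272, 3764 bp from each other, lie about 405452 and 409216 bp from jumu. CG14691 was at 3.67 to 4.39 CPM in jumu loss-of-function, against 0.0205 to 0.156 CPM in wild-type, and was lower in CHES-1-like overexpression, at 0 to 0.0884 CPM, than in CHES-1-like loss-of-function, at 0.3 to 0.868 CPM (log2 fold change -3.18 ± 0.52 SE, FDR = 0.00011). CG31272 was not called in that comparison.

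The limits of the rule cut through a continuous range. Just inside the jumu loss-of-function limit of 1.3 lay snoRNA:Me18S-U1356c (1.3 times wild-type), CG12896 (1.3) and HIP (1.32), and just outside PH4alphaSG1 (1.28), CG6231 (1.28) and snoRNA:lola-c (1.23). For the double loss-of-function limit CG10623 (1.32), CG31235 (1.33) and yellow-d (1.33) were inside, and Hf (1.29), CG10621 (1.28) and CG4998 (1.26) outside. For the overexpression limit of 0.77, CG5618 (0.77), CG15186 (0.762) and LManII (0.757) were inside, and CG12950 (0.771), Sox102F (0.775) and CG33643 (0.776) outside. For the minimum of 1 CPM, snoRNA:Me18S-U1356c (1.04 CPM), CG14111 (1.04 CPM) and lectin-24Db (1.05 CPM) were inside, and CG1941 (0.988 CPM), CG44259 (0.980 CPM) and CG10000 (0.932 CPM) outside.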

How the data were processed

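Total RNA of sorted mesodermal cells was sequenced from 24 samples, 4 of each of 6 genotypes. Reads were mapped by the authors to release r6.05 of the fly genome, and per the labels SAMtools and HTSeq were used. The deposited values are whole-number counts per gene for 17476 genes. Libraries were scaled by TMM, and comparisons were fitted with edgeR 4.0.16 (R 4.3.3) by the quasi-likelihood test on the 8 samples compared, with Benjamini-Hochberg adjustment over the table, after which genes in the lowest 30% by average log2 CPM (prior count 2) were excluded. A call needed an FDR under 0.1 and a log2 fold change beyond 0.5. The script was tested on simulated data. Alternatives were DESeq2 1.42.0, RLE factors, library totals, other filters, a joint fit, a replicate block, an FDR under 0.05 and each sample left out. The members and lists were chosen with earlier results of these data known. Named genes were the 10 highest in jumu loss-of-function, the 10 with the largest ratio of jumu loss-of-function to overexpression, the largest CHES-1-like calls, list members, neighbours and genes at the limits, and others named were chosen after their values were seen. Replicates differed by more than sampling noise. Levels are not corrected for length, so they compare samples, not genes. Names and positions come from an Ensembl annotation of Release 6. Promoter sequences were not analysed here.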

Additional observations from a re-analysis of the deposited data

Results flagged for a closer look

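In 31 of 325 groups of 4 libraries (9.54%), the highest or lowest library lay far from the other 3, which chance gives in about 1 in 20 groups. Of these, 11 were double loss-of-function replicate 2 and 4 were CHES-1-like overexpression replicate 1.

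Double loss-of-function replicate 2 was low for yellow-d (0.449 CPM), AGBE (4.41 CPM), CG7860 (4.25 CPM), CG17109 (12.7 CPM), CG31235 (10.3 CPM) and w (199 CPM), and high for Liprin-gamma (6.5 CPM), CG42260 (12.7 CPM), rn (47.1 CPM), Ilp4 (168 CPM) and CHES-1-like itself (2.78 CPM). CHES-1-like overexpression replicate 1 was low for CG10623 (2.05 CPM), Hsp26 (5.49 CPM), w (23.0 CPM) and PPO1 (169 CPM).

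Among the jumu loss-of-function libraries, PH4alphaPV was high in replicate 2 (5.60 CPM), CG17669 low in replicate 2 (8.79 CPM), LManII high in replicate 2 (104 CPM), CG17109 high in replicate 4 (18.2 CPM) and btl low in replicate 1 (56.4 CPM). Single libraries of jumu overexpression stood apart for CG14945 (1.18 CPM), mt:ATPase6 (1071 CPM) and the library total (67.8 M in replicate 4). In CHES-1-like loss-of-function this held for PH4alphaPV (4.56 CPM), CG7860 (2.85 CPM), AstA-R1 (9.59 CPM) and rn (0.974 CPM), in CHES-1-like overexpression for CG5618 (10.1 CPM), in double loss-of-function replicate 3 for AstA-R1 (8.69 CPM), and in wild-type for CG3777 (2.81 CPM) and tinc (33.1 CPM).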

How the results depend on the processing

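The number of genes called between CHES-1-like overexpression and CHES-1-like loss-of-function was 41, and 39 to 44 under the other tools, filters and scalings, with the direction split changed by library totals as given above. Against wild-type, library totals gave 36 calls in CHES-1-like loss-of-function in place of 21. The number of selected genes was 923 with no minimum level, 138 with limits of 1.2 and 0.83 and 51 with limits of 1.5 and 0.67. Leaving out 1 library at a time gave 36 to 43, 21 to 23 and 27 to 34 calls in CHES-1-like overexpression against CHES-1-like loss-of-function, CHES-1-like loss-of-function against wild-type and CHES-1-like overexpression against wild-type, and 80 to 99 selected genes, of which 53 were kept throughout. With the replicate number as a block the calls were 44, 20 and 34; no source says that the numbers pair the samples. The 41 single genes were refitted with DESeq2, library totals, a replicate block and each of the 8 samples left out. Of these 451 alternative values, most of which left out 1 sample, 25 lost the call and 0 changed direction. The other alternatives were not applied to single genes. Leaving out double loss-of-function replicate 2 was chosen after seeing the data. Low genes are limited by depth, since 3 counts were up to 0.292 CPM.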
